A study of Mus musculus with 6 samples.

Results

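Accessible chromatin was described at 47 genes of the Wnt pathway in mouse embryonic stem cells, out of 21883 protein-coding genes on chromosomes 1 to 19, X and Y. The members are a list of gene symbols, and the rule for them uses no measured value. They comprised 19 Wnt ligands, 12 receptors (10 Frizzled genes with Lrp5 and Lrp6), 10 effectors inside the cell and 6 other genes (Wls, Lgr5, Rnf43, Znrf3, Dkk1 and Sp5). For each, ATAC-seq peaks were counted within 1 kb of the annotated gene ends, in the gene body away from those ends, and elsewhere within 50 kb. ATAC-seq uses the Tn5 transposase to insert sequencing adapters into open DNA.

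The cells were E14 mouse embryonic stem cells that carry a knock-in of NSD1-dTAG, in which a degradation tag is fused to the histone methyltransferase NSD1 so that adding dTAG-13 removes the protein. The library used was that of cells at 0 h with no dTAG-13, grown on gelatin in 2i/LIF medium, which holds the MEK inhibitor PD0325901, the Gsk3 inhibitor CHIR99021 and the cytokine LIF. The sources used here do not state whether the line is a single clone. The labels list 6 samples in 6 groups of 1, and the other 5, with dTAG-13 or as embryoid bodies, were not analysed here. There are no replicates, so no difference was tested. The intervals of pileups cover counting error only. Those of shares treat the genes of a list as independent, though some neighbours share peaks, and they measure no spread between samples.

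Wnt proteins are secreted lipid-modified signals that bind Frizzled receptors together with the co-receptors Lrp5 or Lrp6. Without a signal, a complex of Axin, Apc and Gsk3 marks the coactivator β-catenin for destruction. With a signal that complex is held inactive, and β-catenin joins TCF/LEF factors on DNA to switch on target genes. In 2i/LIF, CHIR99021 acts on the pathway at Gsk3, below the ligands and receptors, and favours self-renewal of embryonic stem cells.

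Sequence upstream of the start is shown for 7 members on which the results turn, as the 250 bases before each transcription start tabulated by RefSeq (GRCm38.p6), 5′ to 3′ on the strand of the gene. In the 5 sequences that follow, capitals mark CpG dinucleotides, since the share of starts with a peak was higher where CpG content was higher. They are the effectors Axin2 (chr11:108920099-108920348, + strand) and Gsk3b (chr16:38088751-38089000, + strand), the receptor Fzd5 (chr1:64737751-64738000, - strand), and the ligands Wnt4 (chr4:137277385-137277634, + strand) and Wnt8b (chr19:44493222-44493471, + strand).
Axin2: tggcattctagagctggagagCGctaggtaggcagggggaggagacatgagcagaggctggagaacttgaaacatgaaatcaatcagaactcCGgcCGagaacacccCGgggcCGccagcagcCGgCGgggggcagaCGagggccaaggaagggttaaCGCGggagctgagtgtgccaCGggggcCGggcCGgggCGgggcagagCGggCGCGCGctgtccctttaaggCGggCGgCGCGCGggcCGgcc
Gsk3b: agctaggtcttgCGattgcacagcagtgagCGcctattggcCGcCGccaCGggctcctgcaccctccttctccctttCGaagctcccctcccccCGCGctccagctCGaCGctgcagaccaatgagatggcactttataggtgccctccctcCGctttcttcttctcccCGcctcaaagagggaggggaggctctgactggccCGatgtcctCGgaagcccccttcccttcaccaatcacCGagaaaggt
Fzd5: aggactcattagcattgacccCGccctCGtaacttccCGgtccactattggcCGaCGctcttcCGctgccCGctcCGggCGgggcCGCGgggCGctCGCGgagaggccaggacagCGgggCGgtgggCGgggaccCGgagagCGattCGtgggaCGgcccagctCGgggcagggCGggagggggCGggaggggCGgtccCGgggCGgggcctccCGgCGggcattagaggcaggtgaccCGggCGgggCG
Wnt4: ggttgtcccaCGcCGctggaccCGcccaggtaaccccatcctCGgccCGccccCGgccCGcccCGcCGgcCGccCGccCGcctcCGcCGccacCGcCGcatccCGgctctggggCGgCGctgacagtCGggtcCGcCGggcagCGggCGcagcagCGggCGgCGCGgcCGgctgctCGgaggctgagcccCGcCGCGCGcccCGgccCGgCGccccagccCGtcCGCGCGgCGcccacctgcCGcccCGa
Wnt8b: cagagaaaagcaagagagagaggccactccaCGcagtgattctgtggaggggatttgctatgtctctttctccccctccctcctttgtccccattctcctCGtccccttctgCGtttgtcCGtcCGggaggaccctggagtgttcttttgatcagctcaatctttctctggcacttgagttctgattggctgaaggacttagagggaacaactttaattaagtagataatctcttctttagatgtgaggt
These windows hold 24, 15, 32, 44 and 5 CpG dinucleotides, in the order shown. The first 4 genes had a peak at the start and Wnt8b had none, and Wnt4 had the most CpG but the lowest of the 4 pileups.

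In the other 2 sequences, capitals mark the TCF/LEF motif, searched on both strands as CTTTGAA or CTTTGAT and as CTTTGTA or CTTTGTT, with overlapping matches allowed. Sp5 (chr2:70474673-70474922, + strand) encodes a transcription factor, and Dkk1 (chr19:30549497-30549746, - strand) a secreted antagonist of Lrp5 and Lrp6. Both genes are known to be induced by Wnt signalling.
Sp5: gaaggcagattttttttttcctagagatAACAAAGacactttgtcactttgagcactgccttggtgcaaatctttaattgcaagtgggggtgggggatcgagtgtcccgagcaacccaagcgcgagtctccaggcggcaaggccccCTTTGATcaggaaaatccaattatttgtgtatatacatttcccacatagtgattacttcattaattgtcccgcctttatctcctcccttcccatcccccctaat
Dkk1: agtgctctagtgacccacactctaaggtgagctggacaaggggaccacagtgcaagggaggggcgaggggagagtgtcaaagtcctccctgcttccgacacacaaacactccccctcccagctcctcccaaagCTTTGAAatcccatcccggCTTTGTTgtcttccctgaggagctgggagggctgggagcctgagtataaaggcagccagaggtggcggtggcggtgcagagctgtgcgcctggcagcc
Each holds 2 matches, in Sp5 at -222 on the reverse strand and at -104, and in Dkk1 at -117 and -98, counted from the start to the leftmost base of the match.

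The library gave 77629 peaks with a median summit pileup of 23 (quartiles 14 and 45). The summit pileup counts the reads or fragments that overlap a peak's highest point, and was recovered from the deposited values. The lowest pileup in the list was 6, so lower sites are not seen. Of 10 embryonic stem cell markers, 9 had a gene-end peak (median pileup 114), and Esrrb, the marker without one, had 22 peaks in its body. Of 6 fibroblast or feeder markers 3 had one (median 22), and of 6 extraembryonic endoderm markers 4 had one (66.7%, median 27.5), against 66.5% of all protein-coding genes (median 66). Accessibility does not measure expression.

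Most Wnt pathway genes were accessible at a gene end, but the ligand genes had lower peaks than the receptors and effectors. A gene-end peak was found at 43 of 47 members (91.5%, Wilson 95% interval 80.1 to 96.6), against 66.5% of all protein-coding genes. By class, 16 of 19 ligands (84.2%, 62.4 to 94.5), all 12 receptors, 9 of 10 effectors (90.0%, 59.6 to 98.2) and all 6 others had one. The intervals of these shares overlap, and differences between classes were not tested. With the peak summit also required within 1 kb of an end, 57.9% of ligands had one, against 100% of receptors and 90% of effectors. The share of all genes at that setting is not given here. The median pileup of the tallest gene-end peak was 31.5 for ligands, 73.5 for receptors, 70 for effectors and 43 for the 6 others, against 66 over all protein-coding genes with such a peak. Only 1 of 16 ligands with a peak, Wnt8a, reached that median of 66, as did 7 of 12 receptors, 5 of 9 effectors and 2 of the 6 others. By fold enrichment, the authors' ratio of summit to local background, ligands, receptors and effectors lay closer. Their medians were 7.62, 8.64 and 8.90, against 11.3 for the 6 others and 11.1 over all genes. A pileup of at least 20 was reached at the ends of 14 ligands, 12 receptors, 8 effectors and 6 others, against 60.4% of all genes.

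**Figure D1:**
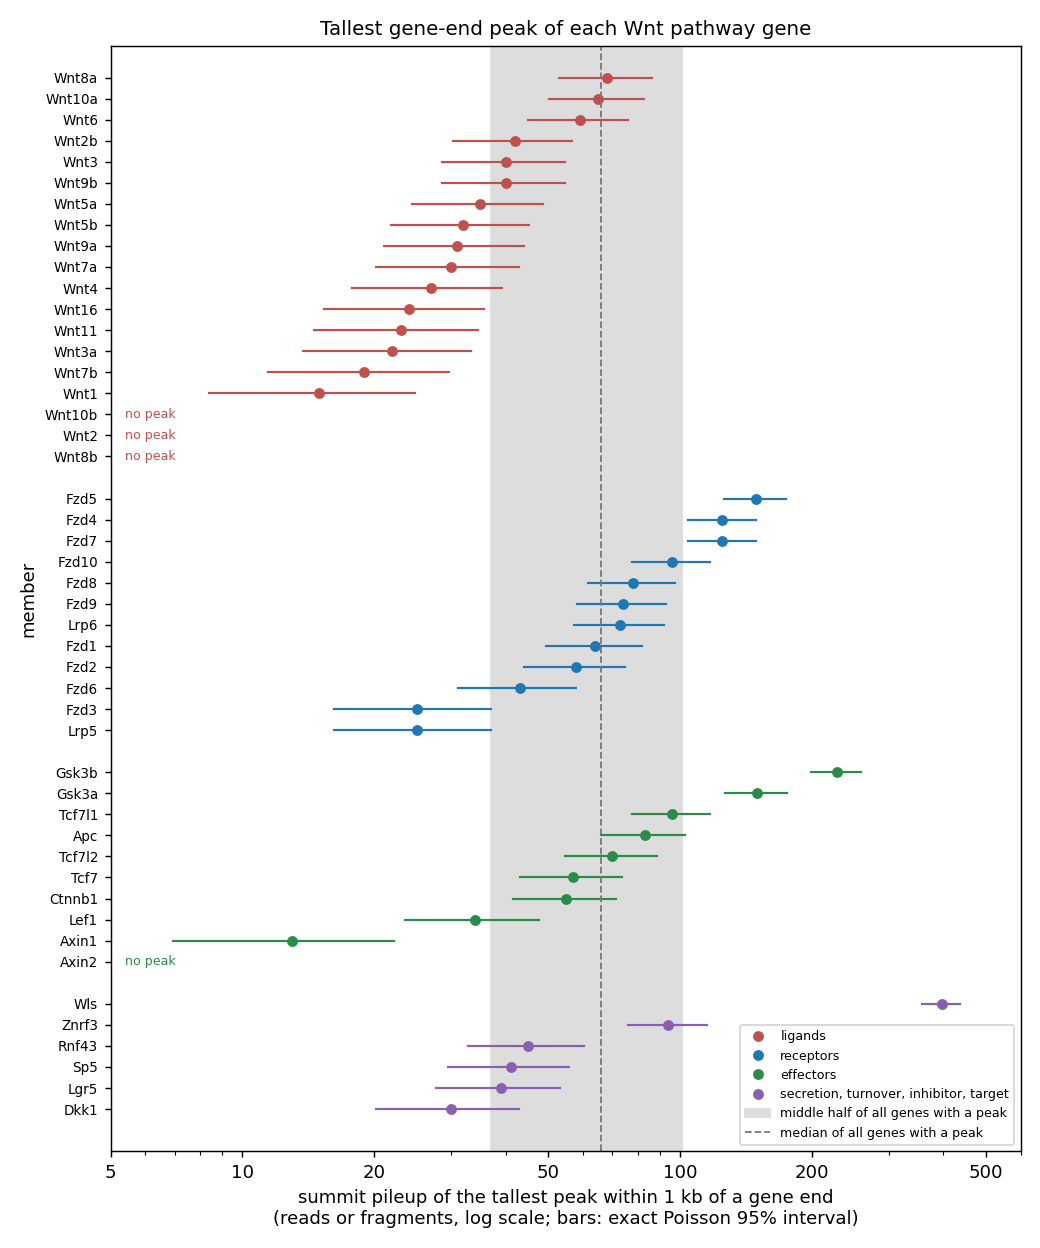
Summit pileup of the tallest peak within 1 kb of a gene end (log scale) for each of 47 members by class, with exact Poisson 95% intervals as bars, beside the median of 66 and the quartiles of 37 and 101 over all protein-coding genes with such a peak. Ligands run from 15 to 68, receptors from 25 to 149, and the effectors with a peak from 13 to 228.

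Among the ligands, Wnt8a had the tallest gene-end peak, with a pileup of 68 (exact Poisson 95% interval 52.8 to 86.2) at chr18:34541884-34542415. Wnt8a is known for its part in the primitive streak of the mouse embryo. Wnt10a followed with 65 (50.2 to 82.8) at chr1:74802974-74803716, and Wnt6 with 59 (44.9 to 76.1) at chr1:74784077-74784719. The peak of Wnt6 stood at the downstream end of the gene, and its tabulated start had a pileup of 24. The peak of Wnt10a stood at the higher-coordinate end and the other end had a pileup of 13 (6.92 to 22.2), and with no tabulated start it is not known here which end holds the start. The other 13 ligands with a peak had pileups of 15 to 42, all below the lowest of these leading 3. Wnt3a, widely used to activate β-catenin signalling in culture, had 22 (13.8 to 33.3). Wnt5a and Wnt11, known for signalling without β-catenin, had 35 and 23. Wnt4 and Wnt9b, which act in kidney development, had 27 and 40. Wnt7a and Wnt7b, known from limb and lung development, had 30 and 19. The remaining values were 42 at Wnt2b, 40 at Wnt3, 32 at Wnt5b, 31 at Wnt9a, 24 at Wnt16 and 15 at Wnt1, and the interval of Wnt1 lies below those of Wnt2b and Wnt3. Wnt3, needed for the primitive streak, and Wnt9b are neighbours whose annotated ends overlap, so their 40 is a single peak at chr11:103773605-103774402. Its summit lay 137 bp before the tabulated start of Wnt3. The tabulated start of Wnt9b lies 22459 bp from the nearer end of its record and had its own peak, with a pileup of 33.

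The 3 ligands without a gene-end peak were Wnt10b, Wnt2 and Wnt8b, and each had at least 1 peak in its body. Wnt2 is annotated beyond its tabulated start, and that start had a peak with a pileup of 21 at chr6:18030263-18031371. Wnt10b had 2 body peaks, the taller with a pileup of 31 at chr15:98772427-98773176, but none at its start. The only body peak of Wnt8b, at chr19:44511387-44512038, had a pileup of 23. Wnt1, Wnt10b and Wnt8b were the 3 members with a tabulated start and no peak at any start. All 3 are ligands. In Wnt1, a ligand needed for midbrain development, the gene-end peak lay downstream of the start and reached a pileup of 15.

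The Frizzled genes, which encode the transmembrane receptors for Wnt, were accessible at all 10 loci. Fzd5 led with a pileup of 149 (126.04 to 174.9) at chr1:64737231-64738263, and the summit lay 24 bp from its start. Fzd4 at chr7:89403507-89404988 and Fzd7 at chr1:59481383-59483276 each had 125 (104.05 to 148.9), and the interval of neither overlaps that of any ligand. Fzd10 had 96, Fzd8 78, Fzd9 74, Fzd1 64, Fzd2 58, Fzd6 43 and Fzd3 25. Most Frizzled genes are short, with a median length of 4.59 kb, and only Fzd5 and Fzd3 had peaks in the body. The peaks at their ends were wide, with a median width of 1313 bp against 897 bp over all genes with a gene-end peak. The co-receptors differed by more than counting error, with 73 (57.2 to 91.8) at Lrp6 and 25 (16.2 to 36.9) at Lrp5. The peak of Fzd4 lies within 1 kb of an end of Tmem135 as well, so it cannot be assigned to either gene alone.

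Among the effectors, Gsk3a and Gsk3b, the Gsk3 kinases of the destruction complex, had the tallest gene-end peaks. Gsk3b had a pileup of 228 (199.4 to 259.6) at chr16:38088325-38089833, at percentile 99.7 of all genes with a gene-end peak. Gsk3a had 150 (126.96 to 176.02) at chr7:25237365-25238636. Tcf7l1, a TCF factor that acts mainly as a repressor in mouse embryonic stem cells, followed with 96 (77.8 to 117.2) at chr6:72788028-72789693. Apc, a scaffold of the destruction complex, had 83, and Ctnnb1, the gene of β-catenin, 55. The other TCF/LEF genes had 70 at Tcf7l2, 57 at Tcf7 and 34 at Lef1. Axin1, the other scaffold of the complex, had 13 (6.92 to 22.2), the lowest of all members with a gene-end peak, and that peak also lies within 1 kb of an end of Pdia2. The tallest peak of Axin1 lay in its body, with a pileup of 170 (145.4 to 197.6) at chr17:26138180-26139314 and 7.40 kb from the nearer end. No start of Axin1 is tabulated, so whether that peak marks a start was not tested.

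Axin2, a close relative of Axin1 and a widely used readout of Wnt signalling, was the effector without a gene-end peak. Its RefSeq record extends 2521 bp upstream of the tabulated start shown above. At that start stood a peak of 1637 bp with a pileup of 95 (76.9 to 116.1), at chr11:108920154-108921790. With windows of 2500 bp around the gene ends all 47 members had a peak. The share of all genes at that setting is not given here, and a wider window can only raise a share. Axin2 also had 5 further body peaks and 6 flanking ones, and all 6 flanking peaks had Axin2 as their nearest protein-coding gene.

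The members known to be induced by Wnt signalling had gene-end peaks with a median below that of all genes. Of 8 such genes 7 had one (87.5%, 52.9 to 97.8), against 66.5% of all genes, and the difference was not tested. Their median pileup was 41, against 66 over all genes. Znrf3, a membrane ubiquitin ligase that removes Frizzled from the cell surface, had 94 (75.96 to 115.03) at chr11:5444655-5445537. Rnf43, a ligase that acts like Znrf3, had 45 (32.8 to 60.2) at chr11:87662245-87662884, with the highest fold enrichment of these gene-end peaks, 15.3. Tcf7, a TCF factor, had 57 (43.2 to 73.9) at chr11:52282448-52283530. Sp5 had 41 (29.4 to 55.6) at chr2:70475724-70477034, towards its downstream end, and a separate peak of 33 at its start. Lgr5, a receptor for R-spondins that marks stem cells of the adult gut, had 39 (27.7 to 53.3) at chr10:115586554-115587855. Lef1 had 34 (23.5 to 47.5) at chr3:131110216-131110499 and Dkk1 30 (20.2 to 42.8) at chr19:30548721-30549699. The interval of Znrf3 lies above those of the 6 others with a gene-end peak, and those of Sp5, Lgr5, Lef1 and Dkk1 overlap each other. Axin2, with a pileup of 95 at its start, stood at the level of Znrf3.

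Wls, which encodes the carrier that brings Wnt proteins to the cell surface, held the tallest gene-end peak of all members, with a pileup of 396 (357.95 to 436.99) and a fold of 29.0. That peak is 273 bp wide, at chr3:159939407-159939679, and its summit lies 892 bp beyond the downstream end of the gene. The peak at the start of Wls had a pileup of 25 (16.2 to 36.9) and a width of 1681 bp. The taller peak is thus far narrower than the one at the start. Wls had no flanking peak within 50 kb.

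Where the strand is known, gene-end peaks were mostly at the upstream end of the gene record. Of 33 members with a tabulated start, 24 had gene-end peaks only at the upstream end, 4 at both, 1 only downstream (Wnt6) and 4 at neither. An upstream end is not always a start. Among the 24, the start of Wnt9b lies 22459 bp from the nearer end, and the start of Wnt1 had no peak. The members without a tabulated start were Wnt5a, Wnt7b, Wnt8a, Wnt10a, Fzd2, Fzd3, Fzd6, Fzd8, Lrp5, Lrp6, Apc, Axin1, Lgr5 and Znrf3. Counted at the tabulated starts, 30 of 33 members had a peak overlapping the 300 bases around at least 1 start (90.9%, 76.4 to 96.9), against 63.1% of all protein-coding genes. These were 12 of 15 ligands, all 6 receptors, all 8 effectors and all 4 others. The median pileup there was 30.5 for ligands, 110.5 for receptors, 82.5 for effectors and 31.5 for others, against 71 over all genes. Receptors without a tabulated start had gene-end pileups of 25 to 78 and do not enter that median. Several genes have more than 1 start, and 36 of the 43 starts of members had a peak. Wnt5b had peaks of 32 at its outer start and 77 (60.8 to 96.2) at its innermost start, with none at the start between. Wnt11 had 23 at its outer start and 53 (39.7 to 69.3) at an inner one, and Lef1 had 34 at its outer starts, 55 at the third and none at the fourth. In Wnt5b the intervals of the outer and innermost peaks do not overlap, and in Wnt11 they do not overlap either.

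The CpG content of starts differed between the classes, and at like CpG content the share with a peak was near that of all genes. CpG content was measured as the observed over expected ratio in the 300 bases from 250 before to 50 after the start. It was at least 0.6 at 29 of 43 member starts (67.4%), against 47.7% of all starts. By class these were 13 of 18 ligand starts (72.2%), all 6 receptor starts, 9 of 14 effector starts (64.3%) and 1 of 5 starts of the others (20%). Among Wnt-induced members it was 4 of 11 starts (36.4%), with a median ratio of 0.530, against 0.567 over all starts. In the range from 0.6 to 0.8, 10 of 11 member starts had a peak (90.9%), against 93.0% of all starts, and at 0.8 or more 18 of 18 did, against 97.8%. From 0.3 to 0.6 it was 8 of 12 (66.7%), against 57.6%. Wnt8b had a ratio of 0.345 and Wnt10b 0.559, both with no peak, whereas Wnt1 had 0.699 and no peak.

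Among members with a tabulated start, ligand starts had peaks of lower pileup than receptor starts at like CpG content. At 0.8 or more, the 9 starts of 8 ligand genes had pileups from 21 to 53 with a median of 30, against a median of 80 and a lower quartile of 54 over all 5852 such starts with a peak. All 9 lay below that lower quartile, and 7 lay below the lowest decile of 35. The 4 receptor starts there, those of Fzd4, Fzd5, Fzd9 and Fzd10, ran from 74 to 149 (median 110.5). The 5 effector starts, of 4 genes, ran from 55 to 95 (median 57), and both starts of Ctnnb1 share the same peak of 55. In pileup, ligand and receptor starts did not overlap in this range of CpG content. Receptors without a tabulated start (gene-end pileups 25 to 78) and ligands without one (19 to 68) are not in this comparison. Those gene-end ranges overlap. In fold enrichment they did overlap. The peaks at these ligand starts ran from 3.24 at Wnt11 to 10.8 at Wnt2b, and those at receptor starts from 7.19 at Fzd5 to 13.8 at Fzd4. From 0.6 to 0.8, 3 ligand starts had pileups of 24 to 40 and both receptor starts had 64 and 125, while 4 effector starts ran from 34 to 228. Below 0.6 the innermost start of Wnt5b was an exception among ligands, with 77. In the range of 0.8 or more the median GC content was 78.0% for ligands, 76.7% for receptors and 75% for effectors, against 66.7% over all such starts. The ligand starts had the wider range, from 59.3% to 86.3%. The receptor starts ran from 72.7% to 78.0%, and the part of GC content in the pileups was not tested. The gene-end peaks of ligands had a median width of 798 bp against 820 bp over 6824 genes with gene-end pileups from 15 to 68. Peaks of 1000 bp or wider stood at 7 of 16 ligands (43.8%), against 33% of those genes.

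**Figure D2:**
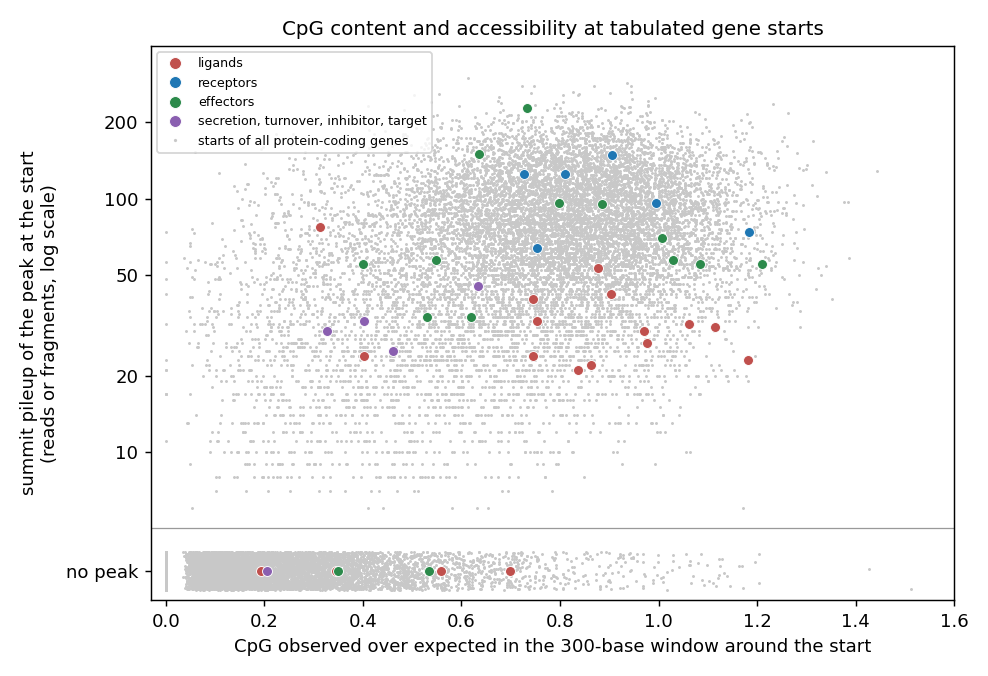
CpG observed over expected in the 300 bases around each tabulated start (x axis) against the summit pileup of the peak there (y axis, log scale, with starts that had no peak in the strip below). Coloured points are the 43 starts of members by class and grey points all starts of protein-coding genes, of which 1 lies beyond the axis limit of 1.6. Ligand starts with a ratio of 0.8 or more sit at 21 to 53, under the receptor starts at 74 to 149. Members without a tabulated start are not shown.

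The TCF/LEF motif was present at 9 of 43 member starts (20.9%), against 14.7% of all starts. The 9 starts belong to Dkk1, Sp5, Fzd7, Gsk3a, Wnt3, Wnt11 and the innermost start of Wnt5b, and to inner starts of Lef1 and Tcf7l2. Peaks stood at 7 of them, and the starts of Lef1 and Tcf7l2 had none. Dkk1 and Sp5 held 2 matches each, the other 7 starts 1 each. The window of Axin2 shown above holds no match to these letters.

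Peaks in the gene body were most numerous in Tcf7l1, Gsk3b and Lrp6. Of 47 members 33 had a peak in the body (70.2%), against 46.3% of all genes, and all 47 had one at an end or in the body, against 75.9%. Members were longer, with a median gene length of 31.0 kb, against 17.2 kb over all genes. The effectors held 65 body peaks, the ligands 37, the receptors 23 and the others 10. Per 10 kb of gene that is 0.723 for effectors, 0.630 for ligands, 0.642 for receptors and 0.207 for others, against 0.305 over all protein-coding genes. The receptor value pools unlike genes, with 0.220 for the 10 Frizzled genes (3 body peaks) and 0.900 for Lrp5 and Lrp6 (20 body peaks). These densities divide by full gene length, though peaks within 1 kb of an end are not counted as body peaks. Short genes, such as most Frizzled genes, thus leave little body in which a peak could be counted. Tcf7l1 alone had 22 body peaks over 163 kb, or 1.35 per 10 kb. Its tallest, 124 (103.1 to 147.8) at chr6:72787297-72787801, lies 1.52 kb inside the upstream end, and another with 121 (100.4 to 144.6) lies at chr6:72677492-72678163, 51.4 kb from the nearer end. Gsk3b had 12 body peaks, Lrp6 11, Lrp5 9, and Tcf7l2 and Wnt5b 8 each. None of the 12 in Gsk3b exceeded a pileup of 37, and none of the 11 in Lrp6 exceeded 32. Fzd5, a gene of 7.19 kb, had 2 body peaks with pileups of 91 and 70.

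**Figure D3:**
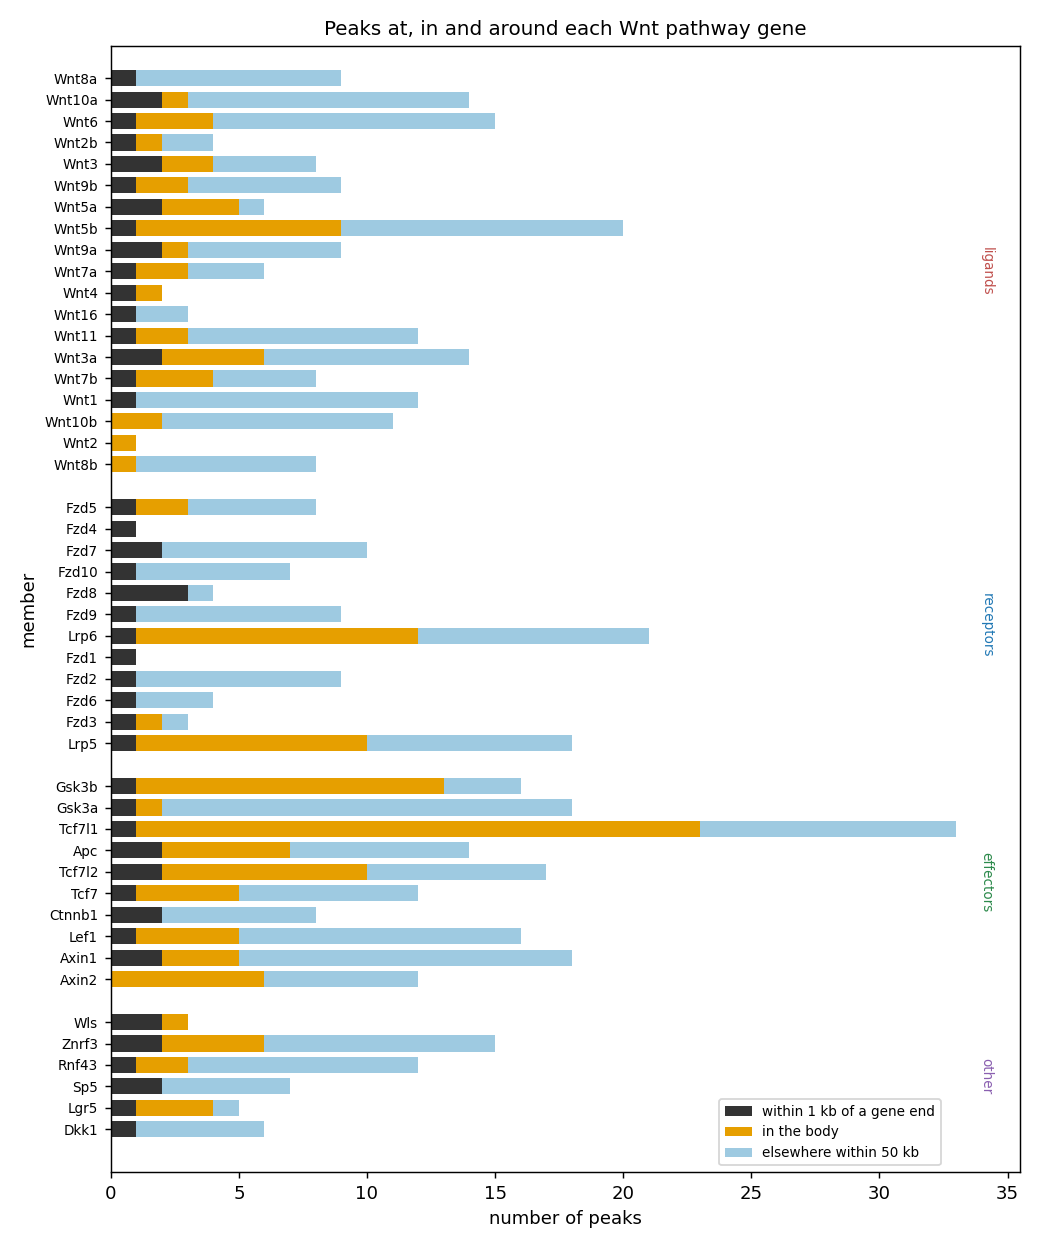
Number of peaks (x axis) within 1 kb of a gene end, in the body and elsewhere within 50 kb, for each of 47 members by class. Tcf7l1 has 22 body peaks, and Gsk3a the most flanking peaks, 16.

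Flanking peaks were about as many as around other genes. The median number within 50 kb was 6 for ligands, 5.5 for receptors, 7 for effectors and 5 for the others, against 5 over all protein-coding genes. At least 1 was present at 42 of 47 members, against 89.3% of all genes, and the 5 without were Wnt2, Wnt4, Fzd1, Fzd4 and Wls. Of the 285 flanking peaks counted over members, 143 (50.2%) lay at or in another protein-coding gene and 91 (31.9%) had the member as their nearest gene. Neighbouring members count the same peak more than once, as 37 peaks were counted for a pair of ligands: Wnt6 with Wnt10a, Wnt3a with Wnt9a, Wnt3 with Wnt9b, and Wnt1 with Wnt10b.

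The members with the most flanking peaks were Gsk3a with 16, Axin1 with 13, and Wnt1, Wnt5b, Wnt6, Wnt10a and Lef1 with 11 each. Around Gsk3a the tallest had a pileup of 210 (182.6 to 240.4) at chr7:25267386-25268502, within 1 kb of an end of Cic, and none of the 16 had Gsk3a as its nearest gene. Axin1 likewise had none nearest to it, and its tallest, 107 at chr17:26243504-26244479, lay at an end of Fam234a. Wnt6 and Wnt10a share their tallest, 111 at chr1:74824684-74825419. The tallest of Wnt1 had a pileup of 114 at chr15:98830818-98831780, within 1 kb of ends of Kmt2d and Prkag1, and that of Wnt5b 122 at chr6:119388094-119388962, in another gene. Lef1 differed, in that 6 of its 11 flanking peaks had Lef1 as the nearest gene and lay outside other genes. The tallest of these had a pileup of 136 (114.1 to 160.9) at chr3:131102236-131102696, 7.85 kb upstream, against 34 at its outer start. A second, with 84 (67.0 to 104.0) at chr3:131083863-131085449, lay 25.5 kb upstream. Tcf7l2 had 7 flanking peaks, all nearest to it, the tallest with a pileup of 57.

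**Figure D4:**
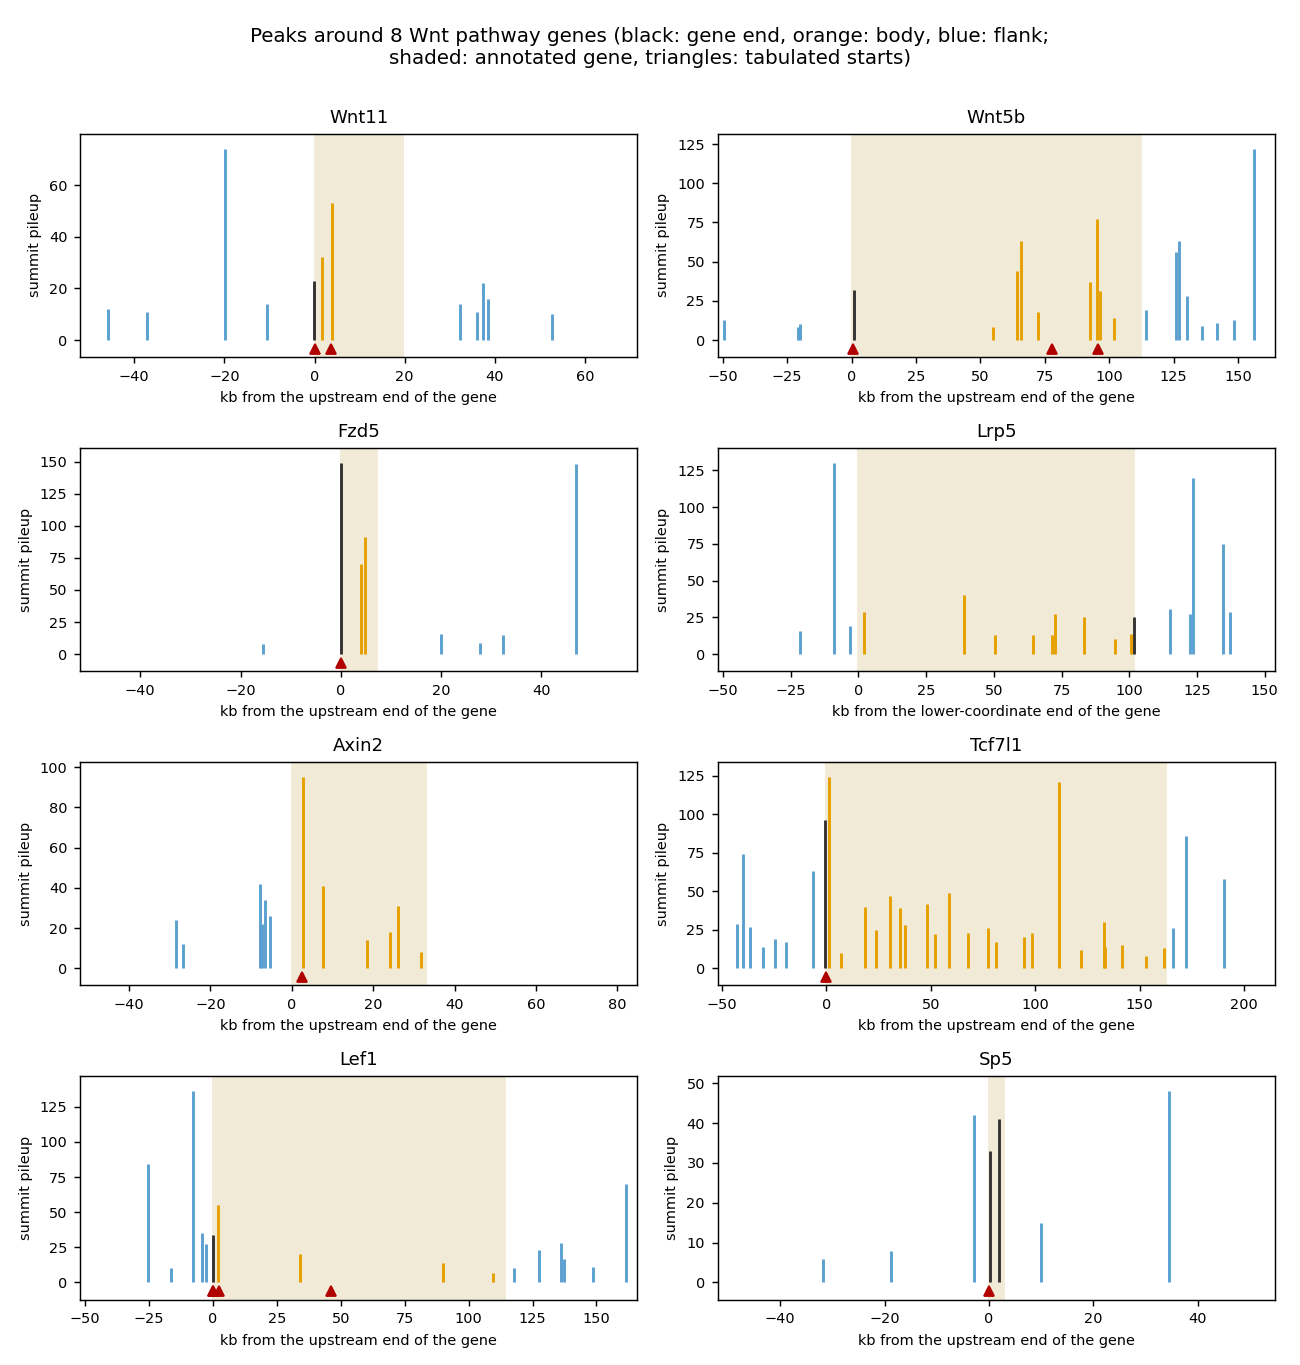
Peaks at, in and around 8 members as vertical lines at their summits, with summit pileup on the y axis and distance in kb from the upstream end on the x axis (from the lower-coordinate end for Lrp5, which has no tabulated start). In Lef1 the tallest peak, 136, stands 7.85 kb upstream of the gene, and in Axin2 the tallest, 95, stands at the tabulated start inside the annotated gene.

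Other genes of the pathway, a list of 42 that are not members, had a gene-end peak in 41 cases (97.6%, 87.7 to 99.6), against 66.5% of all genes. Their median pileup was 60, against 66 over all genes. Tle4, a TCF co-repressor, had 227, Lgr4, an R-spondin receptor, 177, and Pygo2, a β-catenin cofactor, 160. Dkk4, which encodes a secreted antagonist, had no peak at its ends or in its body. The 4 R-spondin genes, secreted enhancers of Wnt signalling, had pileups of 20 to 35, in the range of the Wnt ligands. Among the genes of secreted frizzled-related proteins, which bind Wnt, Sfrp1, Sfrp2, Sfrp4 and Sfrp5 had 56 to 77, and Frzb, also of that family, had 28. Both of these groups were chosen after their values were seen.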

How the data were processed

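Peaks of 1 ATAC-seq library were analysed, and groups of the 6 samples were taken from their titles. The builds GRCm38.p6 and mm10 are named in the submitters' processing notes, as are MACS2 2.2.6 (a peak caller), Bowtie2 2.3.4.1 (an aligner), SAMtools 1.9, bcl2fastq 2.20.0.422 and deepTools 3.2.1. The sources used here do not state filters, duplicate removal or any Tn5 shift. The deposited list gives other values (positions from 0, printed here from 1), the authors' fold enrichment ratio, the authors' -log10 p and -log10 q (lowest 1.3) and a deposited integer score, which is -log10 q times 10 rounded down in 100% of peaks. Total depth is unknown. Pileup was solved from fold, taken as pileup plus 1 over background plus 1, together with the authors' p as a Poisson tail, whole in 77626 of 77629 peaks (tolerance 0.01). Whether it counts reads or fragments is not given, and PCR copies, if kept, are not independent. Repeated sequence was not masked here.

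Gene ends, promoters and strands came from RefSeq tables of GRCm38.p6, and 33 of 47 members matched a promoter. A peak counted by an overlap of 1 bp or more. A gene's pileup is that of its tallest gene-end peak, and class medians of fold enrichment use the highest fold among a gene's end peaks. Every member was accounted for. Given in full were the 3 highest of each class, members without a gene-end peak, the 8 Wnt-induced genes, and the 5 members with the most flanking peaks, ties included. Other values named were chosen after they were seen. The members and lists were chosen with earlier results of these data known. The recovery of pileups and the assignment of peaks to genes were tested on simulated data. Python 3.11.15 was used with matplotlib 3.10.9, scipy 1.17.1, pandas 2.3.3 and numpy 2.4.6.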

Additional observations from a re-analysis of the deposited data

How the results depend on the processing

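No paired analysis was possible because each group has 1 sample. With 1 library no spread between samples is known, and sites with a pileup under 6 are not seen. Of the values recomputed under other settings, 150 stayed within the Wilson interval of a share or within 1.5 times, and 35 moved.

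With the summit required in the window, 57.9% of ligands had a gene-end peak, in place of 84.2%. With gene-end windows of 2500 bp, 100% of ligands, of effectors and of all members did, as did 100% of effectors at tabulated starts, a setting added after seeing the data. Shares of all genes with the summit required or with 2500 bp windows are not given here. The ratio of median pileup of ligands over receptors was 0.429, and over effectors 0.450. By fold enrichment these ratios were 0.882 and 0.856.

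Only peaks with a pileup of at least 20 left 20 body peaks for ligands, 8 for receptors, 33 for effectors, 3 for others and 64 for all members, in place of 37, 23, 65, 10 and 135. That setting lowered the median number of flanking peaks to 3 for ligands, 1 for receptors, 2 for others and 3 for all members. A -log10 q of at least 5 lowered it to 3.5 for receptors. Within 20 kb the medians were 3 for ligands, 1.5 for receptors, 3.5 for effectors, 3 for others and 2 for all members. Within 100 kb they were 12 for ligands, 14 for effectors, 8.5 for others and 12 for all members. Counting only peaks outside other genes gave 2 for ligands, 2.5 for receptors, 3 for others and 3 for all members. Counting only peaks nearest to the member gave 1 for ligands, 1 for receptors, 4 for effectors, 1.5 for others and 1 for all members. These settings count fewer or more peaks by construction. Without the tallest peak of Wls, left out after seeing the data, no value moved.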
